A study of Mus musculus and Rattus norvegicus with 53 samples.

Results

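The 10 genes followed here encode adhesion molecules that act between axons and Schwann cells (SCs), all of the immunoglobulin type except gliomedin (Gldn), and they were traced through injury of the mouse sciatic nerve: Ncam1, the L1 family genes L1cam, Chl1, Nrcam and Nfasc, the nectin-like genes Cadm1, Cadm2, Cadm3 and Cadm4, and Gldn. They were chosen by gene symbol, with the lanes of a library summed, and are 10 of the 24016 genes counted in the mouse files. SCs carried a tdTomato label (tdTom SC mice, in which a Cre transgene active in the SC lineage removes a stop cassette from a Rosa26 tdTomato allele) and were sorted by their fluorescence. The sciatic nerve of male and female mice aged 6 to 8 weeks was transected, and SCs were collected from the contralateral uncut nerve (iSCs), from the stump distal to the cut (dSCs) and from the new tissue that bridges the gap (bSCs). All groups carry both alleles, so the label follows the activity of that transgene, and the iSCs come from injured animals. The first experiment held 12 libraries from day 6, with 4 libraries of each kind and the nerves of 3 mice in each library. The second held 35 libraries of single nerves: 5 of iSCs, 18 of dSCs and 12 of bSCs, with 3 libraries of each region at days 4, 6, 8 and 10 and 3 more of dSCs at both day 1 and day 2.

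These proteins hold axons and SCs together. In a myelinated fibre the nodes are flanked by paranodes, where the glial isoform of neurofascin (Nfasc) binds the axonal contactin complex, while gliomedin is secreted by SCs and gathers the axonal isoform of neurofascin and NrCAM at the node. Along the internode, Cadm4 on the SC faces Cadm3, and to a lesser degree Cadm2, on the axon. NCAM1 and L1 mark immature SCs and the mature SCs that wrap small axons without myelin, and both are low in SCs that form myelin. Loss of axonal contact after a cut is followed by myelin breakdown and by a return of SCs to a state with immature traits.

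The genes lie on 7 chromosomes. In the mm9 build (GENCODE vM1 annotation), Ncam1 spans chr9:49310257-49607027 on the minus strand, Cadm1 chr9:47338256-47665720 and Gldn chr9:54134293-54189593, both on the plus strand. The L1 family genes are at chrX:71099117-71141444 (L1cam, minus), chr6:103460870-103699671 (Chl1, plus), chr12:45429872-45702951 (Nrcam, plus) and chr1:134461268-134638374 (Nfasc, minus). The other nectin-like genes are at chr16:66655666-67621153 (Cadm2, minus), chr1:175264385-175297826 (Cadm3, minus) and chr7:25267042-25289558 (Cadm4, plus). All are annotated as protein-coding. The values are counts of reads over all exons of a gene, so the isoforms of a gene, among them the glial and axonal neurofascins, were not told apart. The library protocol did not mark strand, and for Ncam1, L1cam, Chl1, Cadm2, Cadm3 and Gldn the annotation has other genes within the same span (Gm11149 and Gm17616 opposite Ncam1, Arhgap4 on the strand of L1cam, Aim2 opposite Cadm3), whose reads cannot be fully separated.

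Libraries held 11435463 to 22617054 gene counts in the pooled nerves and 9240883 to 22426128 in the single nerves. In 4 single-nerve libraries only 10042 to 11138 genes were detected (iSC replicates 0 and 1, dSC day 2 replicate 0 and dSC day 1 replicate 1), against up to 15815 in the others. The bSC and dSC libraries of animal 19 at day 4 were close to identical: the chi-square distance of their counts was 3.90 per degree of freedom, the next closest of the 595 pairs of single-nerve libraries was at 46.2, and 2 lanes of the same library differed by at most 1.3. For Nrcam, Gldn, L1cam, Ncam1, Nfasc and Cadm2, single-nerve fold changes are also given without the 4 libraries of few genes, for some of the comparisons. The 4 SC markers used (Sox10, S100b, Erbb3, Cdh19) were counted in every group, and transcripts that mark macrophages and fibroblasts were present too.

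Per length of exon, the 10 genes covered a wide range in uninjured SCs. In the pooled iSCs the mean level, as RPKM (CPM, a count scaled to the total of its library, per kilobase of exon) ± SD over 4 libraries, was 67.3 ± 23.8 for Cadm4, 55.6 ± 35.0 for Ncam1, 43.6 ± 23.4 for Chl1, 39.4 ± 18.1 for Gldn and 33.4 ± 23.3 for Cadm1. The other 5 genes were at 25.4 ± 12.3 (Cadm3), 18.9 ± 8.49 (L1cam), 18.7 ± 6.45 (Nfasc), 16.6 ± 8.80 (Cadm2) and 4.20 ± 2.26 RPKM (Nrcam). Neighbours in this order overlapped in their library values, except that every Nrcam library (1.10 to 6.46 RPKM) lay below every Cadm2 library (8.70 to 27.7 RPKM). The order differed after injury. In dSCs the highest mean was that of Cadm4 (28.8 ± 19.8 RPKM) and the lowest that of Cadm2 (0.489 ± 0.421), while in bSCs Ncam1 was highest (58.8 ± 21.6) and Nfasc lowest (0.0780 ± 0.108).

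In the pooled nerves at day 6, 5 of the 10 genes fell in dSCs relative to iSCs, namely Ncam1, L1cam, Nfasc, Cadm2 and Cadm3, and none rose (edgeR quasi-likelihood test, adjusted p under 0.05). Among all 13751 genes tested, 5.32% were called in this comparison. The median log2 fold change of the 10 genes was -1.63, against -0.023 over all genes tested. Relative to iSCs, 3 of the 10 genes fell in bSCs (Nfasc, Cadm3 and Chl1) and none rose, where 14.7% of all genes were called, and the medians were -1.02 for the 10 genes and -0.156 for all genes. Between the injured regions, Ncam1 and L1cam rose in bSCs relative to dSCs and Nfasc fell, 3 of 10 against 5.43% of all genes, with medians of -0.095 and -0.0734. These comparisons share libraries, so their counts are not independent of each other. The labels tie the libraries to pools of mice. With the pool as a replicate block, the number of the 10 genes called was 1 (Cadm3), 2 (Nfasc and Cadm3) and 1 (Ncam1). With this block 287, 968 and 236 of all 13751 genes were called. Adjusted p-values from edgeR are given beside each gene.

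**Figure D1:**
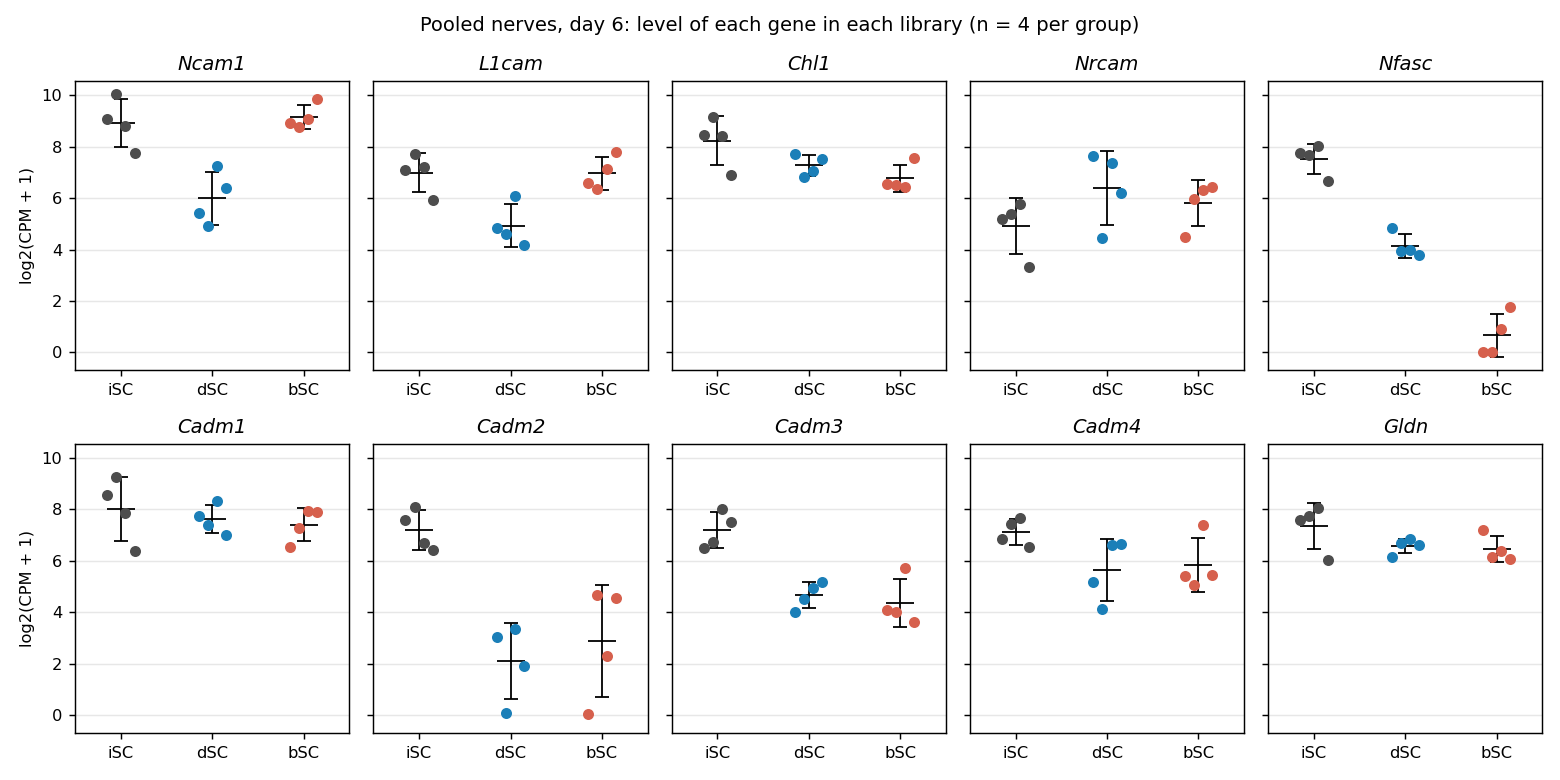
Level of each of the 10 genes in the 12 pooled-nerve libraries at day 6. The vertical axis is log2(CPM + 1), each point is 1 library, the horizontal tick is the mean and the bars are 1 SD (n = 4 per group). Ncam1 and L1cam are low in dSCs alone, Cadm3 is low in both injured regions, and Nfasc steps down from iSCs to dSCs to bSCs.

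Ncam1 was abundant in intact nerve and bridge and low in the distal stump. Its level was 534, 1054, 445 and 217 CPM (scaled by TMM factors) in the iSC libraries, 41.5, 29.3, 149.5 and 83.6 in the dSC libraries and 487, 436, 541 and 916.5 in the bSC libraries. Every dSC library lay below every library of both other groups, and the iSC and bSC values overlapped. The log2 fold change was -2.89 ± 0.56 (SE) in dSCs against iSCs (7.40-fold lower, edgeR adjusted p = 0.0101) and 2.97 ± 0.56 in bSCs against dSCs (7.83-fold higher, adjusted p = 0.0116). Against iSCs, bSCs differed by 0.08 ± 0.52 (adjusted p = 0.944). With the pool block, the first of these differences had an edgeR adjusted p of 0.0516 and the second of 0.0465. Both calls held without each of the 8 libraries in turn.

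L1cam, which encodes the founding member of the L1 family and is known from outgrowing axons and from SCs without myelin, was also lowest in dSCs, with smaller differences. The iSC libraries gave 134, 211, 149 and 59.4 CPM, the dSC libraries 27.5, 23.7, 67.7 and 17.1 CPM and the bSC libraries 95.7, 80.02, 139.5 and 219 CPM. Here 1 dSC library (67.7 CPM) lay above 1 iSC library (59.4 CPM), whereas every bSC library exceeded every dSC library. The log2 fold changes were -2.03 ± 0.49 in dSCs against iSCs (adjusted p = 0.0317) and 1.97 ± 0.49 in bSCs against dSCs (edgeR adjusted p = 0.036). The first call held in 2 of the 8 fits that left out 1 library (those without iSC replicate 5 or dSC replicate 3), with adjusted p-values up to 0.101. The second held in 3 of 8 and was lost without bSC replicates 3 or 5 or dSC replicates 1, 2 or 5, with adjusted p-values up to 0.0962. With the pool block neither held (edgeR adjusted p = 0.0947 and 0.0849). Against iSCs, bSCs differed by -0.05 ± 0.48 on the log2 scale (adjusted p = 0.96).

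Chl1, the close homologue of L1, was called in bSCs against iSCs, where L1cam was not, a difference between genes that was not tested. Its level was 351, 574, 343 and 118 CPM in iSCs, 211, 111, 132 and 182 CPM in dSCs and 93.4, 90.3, 86.4 and 189 CPM in bSCs. The lowest iSC library lay among the injured libraries, and 3 of the 4 bSC libraries were below every other library. Chl1 fell in bSCs against iSCs by 1.60 on the log2 scale (SE 0.42, edgeR adjusted p = 0.0229), a call that was lost with the pool block (adjusted p = 0.168). It held in 3 of 8 fits without 1 library and was lost without iSC replicates 1 or 2 or bSC replicates 1, 2 or 3 (adjusted p up to 0.077). In dSCs against iSCs the log2 fold change was -1.13 ± 0.42 (adjusted p = 0.168), and without iSC replicate 5 it was -1.39 (edgeR adjusted p = 0.0263).

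Nfasc had the largest fold change of the 10 genes in bSCs against iSCs. It stood at 213, 201, 260 and 101 CPM in iSCs and at 27.5, 14.6, 14.6 and 12.98 CPM in dSCs. In bSCs no read was counted in 2 libraries, where 3 reads would correspond to 0.135 and 0.219 CPM, and the others held 10 and 51 reads (0.859 and 2.38 CPM). The 3 groups did not overlap. The log2 fold change was -3.47 ± 0.89 in dSCs against iSCs (edgeR adjusted p = 0.0392), -7.85 ± 1.11 in bSCs against iSCs (adjusted p = 0.000655) and -4.38 ± 0.96 in bSCs against dSCs (adjusted p = 0.021). Because 2 bSC libraries are at 0, the size of the last 2 values depends on the fit. With the pool block the adjusted p-values were 0.194, 0.013 and 0.0876. The call in dSCs against iSCs held in 1 of 8 fits without 1 library (that without iSC replicate 5, with adjusted p-values up to 0.119 in the others), that in bSCs against iSCs in 8 of 8, and that in bSCs against dSCs in 7 of 8, where it was lost without dSC replicate 1 (adjusted p = 0.0531). Fitted on the bSC and dSC libraries alone, this last comparison was not called either (-4.44 ± 1.67, edgeR adjusted p = 0.184).

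The partners of neurofascin at the node were not called in the fit of all pooled libraries. Gldn stood at 194, 214, 262 and 64.5 CPM in iSCs, at 70.7, 101, 113 and 97.6 CPM in dSCs and at 145.5, 70.3, 81.5 and 66.6 CPM in bSCs, so that 3 iSC libraries were the highest of all and the last was the lowest of all. Its log2 fold changes were -0.94 ± 0.39 in dSCs (adjusted p = 0.224) and -1.01 ± 0.39 in bSCs (edgeR adjusted p = 0.0976), both against iSCs. Without iSC replicate 5 they were -1.19 and -1.26 (edgeR adjusted p = 0.0349 and 0.0169), and without bSC replicate 1 the second was -1.32 (0.0439). Nrcam was the one gene of the 10 with a positive fold change in dSCs, 1.70 ± 0.66 (adjusted p = 0.192). Its libraries ranged from 9.11 to 53.6 CPM in iSCs, from 21.1 to 198 CPM in dSCs and from 21.6 to 84.7 CPM in bSCs, and the groups overlapped.

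Within the nectin-like genes, Cadm2 and Cadm3, known mainly from axons, were those that fell in dSCs. Cadm3 was at 90.7, 105, 257 and 183 CPM in iSCs, at 15.2, 22.1, 30.1 and 34.8 CPM in dSCs and at 15.9, 15.2, 51.9 and 11.3 CPM in bSCs. All iSC libraries lay above all injured libraries, and the injured regions overlapped. The log2 fold change was -2.64 ± 0.53 in dSCs (6.21-fold lower, adjusted p = 0.0122) and -2.75 ± 0.53 in bSCs (6.74-fold lower, edgeR adjusted p = 0.00383). Both calls held with the pool block (0.0215 and 0.01) and without each of the 8 libraries in turn. Cadm2 stood at 191, 272, 102 and 85.3 CPM in iSCs, at 7.19, 0.0673, 9.16 and 2.76 CPM in dSCs and at 0.0449, 24.4, 3.87 and 22.7 CPM in bSCs. Again no injured library reached an intact one, and 1 dSC and 1 bSC library held a single read. The log2 fold change of Cadm2 was -5.08 ± 1.34 in dSCs (adjusted p = 0.0438, lost with the pool block, 0.243, and in 7 of 8 fits without 1 library, up to 0.13, and kept without iSC replicate 5) and -3.67 ± 1.25 in bSCs (edgeR adjusted p = 0.0654, called by DESeq2 with 0.0059).

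Cadm4, the glial partner along the internode, and Cadm1, which is found on axons and SCs alike, were not called in the fit of all libraries. Cadm4 ranged from 92.0 to 205 CPM in iSCs, from 16.5 to 99.2 CPM in dSCs and from 32.4 to 169 CPM in bSCs. The log2 fold changes against iSCs were -1.22 ± 0.61 in dSCs and -1.02 ± 0.61 in bSCs (edgeR adjusted p = 0.359 and 0.309). Without bSC replicate 3, the highest of its group, the Cadm4 value in bSCs was -1.86 ± 0.55 (edgeR adjusted p = 0.0443). Cadm1 ranged from 82.0 to 614 CPM in iSCs, from 128 to 319 CPM in dSCs and from 92.0 to 242 CPM in bSCs, with log2 fold changes of -0.65 ± 0.51 and -0.84 ± 0.51 (adjusted p = 0.648 and 0.313). The iSC range of Cadm1 contained the ranges of both injured regions.

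**Figure D2:**
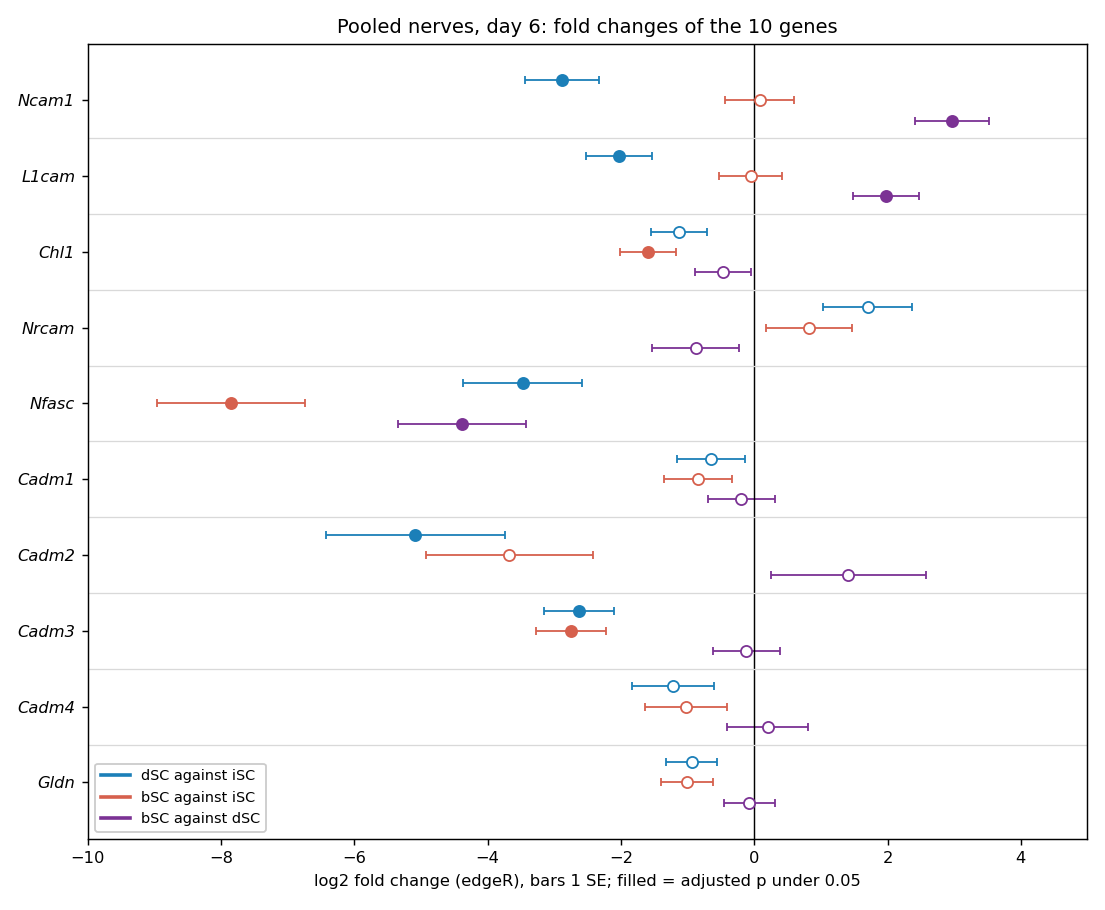
Log2 fold changes of the 10 genes in the 3 pooled-nerve comparisons, from the edgeR fit. The horizontal axis is the log2 fold change, bars are 1 SE, colours are the comparisons and filled points have an adjusted p under 0.05. Ncam1 and L1cam have values near 0 in bSCs against iSCs and opposite values in the other comparisons, whereas Nfasc is negative in all 3.

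Markers of other cells moved with the groups. The summed level of 7 macrophage markers was 165 to 4190 CPM in iSCs, 7350 to 11900 CPM in dSCs and 1750 to 5120 CPM in bSCs, so that it was highest where Ncam1 and L1cam were lowest. The 4 SC markers summed to 614 to 1530 CPM in iSCs, 305 to 631 CPM in dSCs and 223 to 553 CPM in bSCs. The 6 fibroblast markers summed to 9220 to 42700, 27200 to 39400 and 14400 to 26800 CPM, 3 perineurial markers to 733 to 1040, 183 to 624 and 190 to 405 CPM, 5 endothelial markers to 102 to 275, 96.5 to 228 and 54.1 to 509 CPM and 4 mural markers to 199 to 1310, 119 to 156 and 99.9 to 637 CPM in iSCs, dSCs and bSCs. Among the iSC libraries, replicate 5 had the highest macrophage and fibroblast sums (4192 and 42720 CPM, next 1010 and 28270). It also had the lowest SC marker sum (614 CPM, next 1124). Without this library Chl1 and Gldn passed in dSCs against iSCs, as given above. The part of these other cells in the results, those of iSC replicate 5 included, was not tested. Several of the 10 genes are also expressed by neurons. The 9 neuronal markers used summed to 8.23 to 20.1 CPM in iSCs, 43 to 101 in dSCs and 100 to 309 in bSCs. Syt1 was at 0 in all 12 libraries, and Tubb3 alone had reads in every one. Nefh, Snap25 and Elavl4 were also at 0 in all dSC libraries, Nefl, Rbfox3 and Elavl4 in all bSC libraries, and Nefh and Rbfox3 in all iSC libraries. Nefl and Elavl4 were each at 0 in 2 of the 4 iSC libraries. The sums were not split by marker. Melanocyte markers summed to at most 7.95 CPM. In bulk samples, fewer cells of a type and less RNA per cell cannot be told apart.

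The promoters of L1cam and Nfasc are shown because both genes were called in dSCs against iSCs and in bSCs against dSCs, with opposite signs in the latter. RefSeq (GRCm38.p6) gave a promoter for 8 of the 10 genes, and Ncam1 and Cadm1 had none in the table used. The 250 bases before the more upstream annotated start of L1cam (chrX:73880835-73881084) and of Nfasc (chr1:132707327-132707576) read as follows on the strand of each gene, 5′ to 3′, with a match to a searched motif in capitals.
L1cam: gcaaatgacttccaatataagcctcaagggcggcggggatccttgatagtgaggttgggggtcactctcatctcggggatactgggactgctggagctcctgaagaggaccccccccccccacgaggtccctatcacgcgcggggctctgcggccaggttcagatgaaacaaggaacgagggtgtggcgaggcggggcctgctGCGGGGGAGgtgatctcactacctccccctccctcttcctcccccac
Nfasc: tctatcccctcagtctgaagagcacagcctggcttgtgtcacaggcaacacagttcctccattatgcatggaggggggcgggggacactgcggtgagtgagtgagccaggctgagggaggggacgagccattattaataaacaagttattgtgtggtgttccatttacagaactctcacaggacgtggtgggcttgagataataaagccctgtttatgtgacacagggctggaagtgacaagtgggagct
On both strands, the windows of all genes were searched for an AP-1 motif (TGANTCA), SOX motifs (ACAAAG or ACAATG) and EGR motifs (GCGTGGGNG or GCGGGGGNG). The L1cam window held 1 EGR match, which begins 47 bases before the start, and the Nfasc window held none of the 3 kinds. An AP-1 match was found for Cadm3 and Gldn, a SOX match for Chl1 and Cadm4, and an EGR match for Cadm3, Nrcam and L1cam. Of all 32851 promoters in the table, 6.75% held the AP-1, 25.2% a SOX and 6.89% an EGR motif. These matches describe letters in a window, not sites of binding.

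In the single nerves, the 10 genes were tested over the same regions and over more days, and 1 gene passed. Nrcam rose in dSCs of days 4 to 10 against iSCs, where 5.32% of all 15519 genes were called. None of the 10 was called in dSCs of days 1 and 2 against iSCs (0.677% of all genes), in bSCs of days 4 to 10 against iSCs (9.34%), in bSCs against dSCs of days 4 to 10 (0.103%) or in dSCs of days 4 to 10 against those of days 1 and 2 (2.24%). At an unadjusted p under 0.05 the counts were 2, 2, 3 and 3 of 10 genes in these 4 comparisons. Over all 15519 genes they were 1538, 3679, 1398 and 2523. DESeq2 called 0, 2, 1 and 1 of the 10 genes, and 560, 2089, 579 and 1137 of all genes. The median log2 fold changes of the 10 genes were -0.0973, 0.148, -0.272 and 0.373, against -0.094, -0.152, -0.0275 and 0.0314 over all genes, and for dSCs of days 4 to 10 against iSCs they were 0.289 and -0.0805. Whether the difference between bSCs and dSCs changed over days 4, 6, 8 and 10 was tested by an interaction term, and 0 of the 10 genes and 0% of all genes were called (no member and 488 genes had an unadjusted p under 0.05, and DESeq2 called none of the 10 and 25 genes in all).

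**Figure D3:**
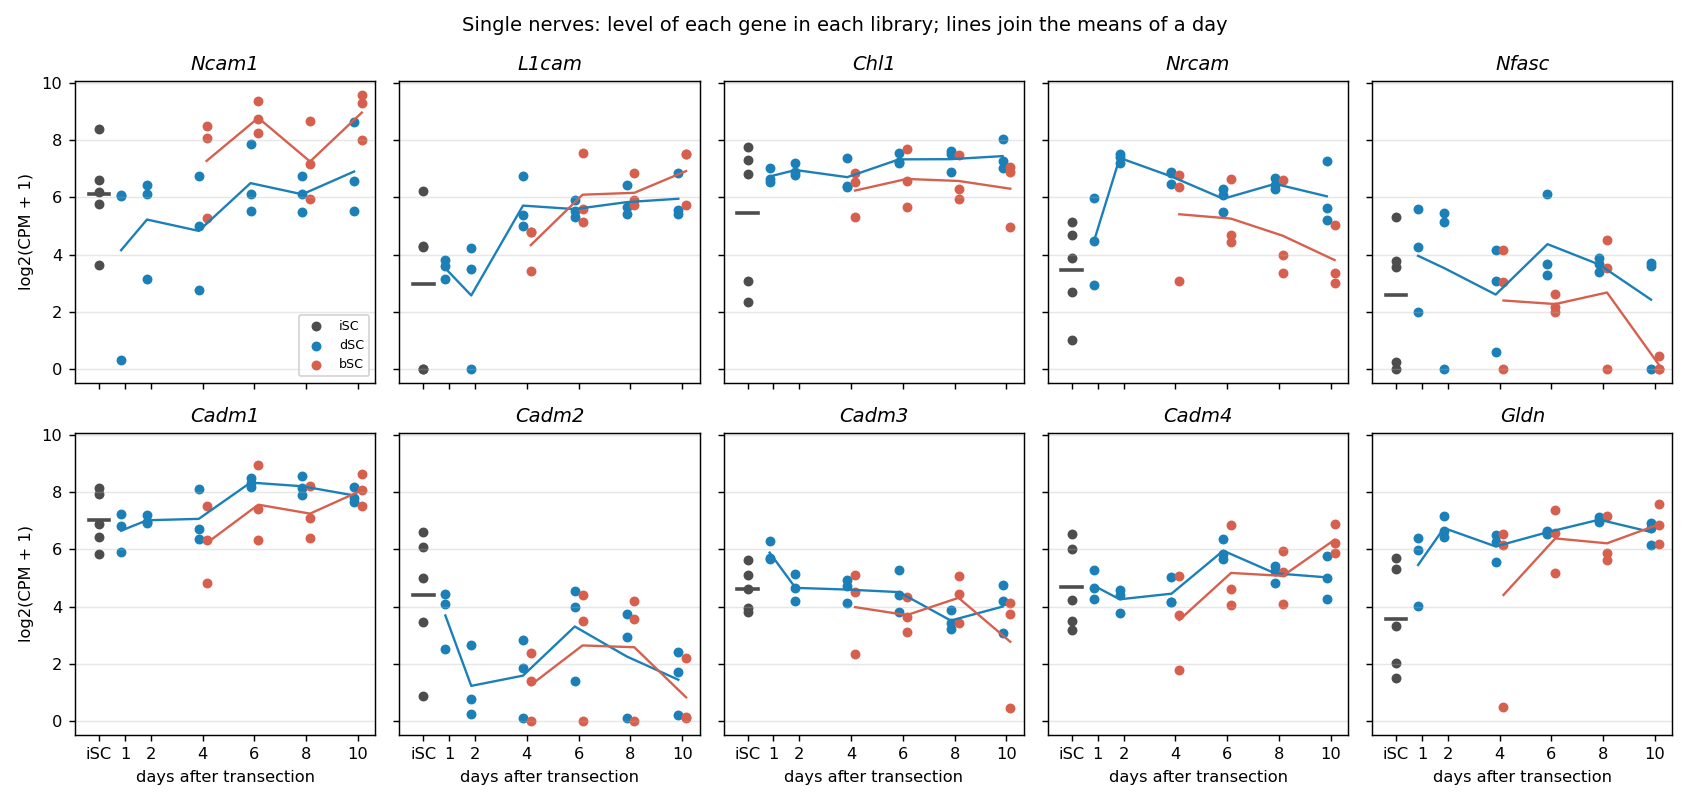
Level of each of the 10 genes in the 35 single-nerve libraries by day after transection. The vertical axis is log2(CPM + 1), points are libraries, lines join the means of the days and the bar at iSC is the mean of 5 uninjured nerves. In dSCs, Nrcam lies above all iSC libraries from day 2 on, and the L1cam libraries of days 4 to 10 lie above those of days 1 and 2.

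Nrcam stood at 33.9, 13.6, 1.00, 24.4 and 5.46 CPM in the 5 iSC libraries. In dSCs it was at 20.99, 6.61 and 62.5 CPM on day 1 and at 184, 145 and 170 CPM on day 2, and from day 4 to day 10 the 12 dSC libraries ranged from 36.1 to 154 CPM with a median of 81.8. All 12 lay above all 5 iSC libraries. In dSCs of days 4 to 10 the log2 fold change was 2.40 ± 0.72 (5.28-fold higher, edgeR adjusted p = 0.045). It was 3.07 without the 4 libraries of few genes (adjusted p = 0.0596) and 2.47 without the near-identical pair (adjusted p = 0.0594), and the call held in 3 of 17 fits without 1 library (iSC replicate 0, dSC day 6 replicate 3 or dSC day 10 replicate 0), while in the others the adjusted p reached 0.0951. By day, the log2 fold change of dSCs against iSCs was 0.94 ± 0.84 on day 1, 3.41 ± 0.86 on day 2, 2.76 ± 0.85 on day 4 and 2.34 ± 0.84 on day 10. In bSCs Nrcam ranged from 7.10 to 110 CPM with a median of 22.8, and 8 of the 10 animals with both regions had less in bSCs than in dSCs. The difference between the regions was -1.12 ± 0.48 (adjusted p = 0.448), and -1.56 ± 0.50 with the animal as a block (edgeR adjusted p = 0.25).

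Gldn, whose product binds NrCAM, did not pass the test in edgeR, while DESeq2 called it in both regions against iSCs. It was at 1.81, 3.05, 9.09, 51.5 and 38.8 CPM in iSCs. The 12 dSC libraries of days 4 to 10 ranged from 45.8 to 138 CPM with a median of 97.7, and 11 of them exceeded every iSC library. Its log2 fold change was 2.21 ± 0.72 in dSCs and 2.05 ± 0.71 in bSCs of days 4 to 10 against iSCs (edgeR adjusted p = 0.0633 and 0.0634). The first 2 of the iSC values, the lowest, come from the libraries with few genes detected, and without the 4 such libraries the fold changes were 1.61 ± 0.72 and 1.43 ± 0.72 (adjusted p = 0.244 and 0.235). Without iSC replicate 4 both passed (edgeR adjusted p = 0.0376 and 0.0342), as did that in bSCs without bSC day 4 replicate 2 (0.0247). In the pooled nerves the log2 fold changes of Gldn had the opposite sign.

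L1cam was read at 0, 0, 18.8, 73.7 and 18.3 CPM in the iSCs of single nerves and at 0 to 17.6 CPM in the dSCs of days 1 and 2. Both iSC libraries at 0 are among those with few genes. From day 4 on, the dSC libraries ranged from 31.2 to 115 CPM and all lay above those of days 1 and 2, a log2 difference of 2.53 ± 0.87 (edgeR adjusted p = 0.108, DESeq2 called it). Without the 4 libraries of few genes it was 2.18 ± 0.53 (edgeR adjusted p = 0.0854). The same libraries are separated by the 4 SC markers, which summed to 68 to 205 CPM at days 1 and 2 and to 261 to 597 CPM at days 4 to 10, while mural markers summed to 940 to 4120 and 455 to 2360 CPM. Their part in the difference was not tested. The bSC libraries spread from 9.63 to 186 CPM and overlapped with dSCs (0.19 ± 0.62, adjusted p = 1). L1cam was higher in bSCs in 5 of 10 animals over days 4 to 10. By day, the log2 fold change of bSCs against dSCs was -1.50 ± 1.26 on day 4 and 0.90 ± 1.25 on day 6. On days 8 and 10 it was 0.35 ± 1.24 and 1.02 ± 1.25. In the pooled nerves, all of day 6, every bSC library was higher than every dSC library.

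**Figure D4:**
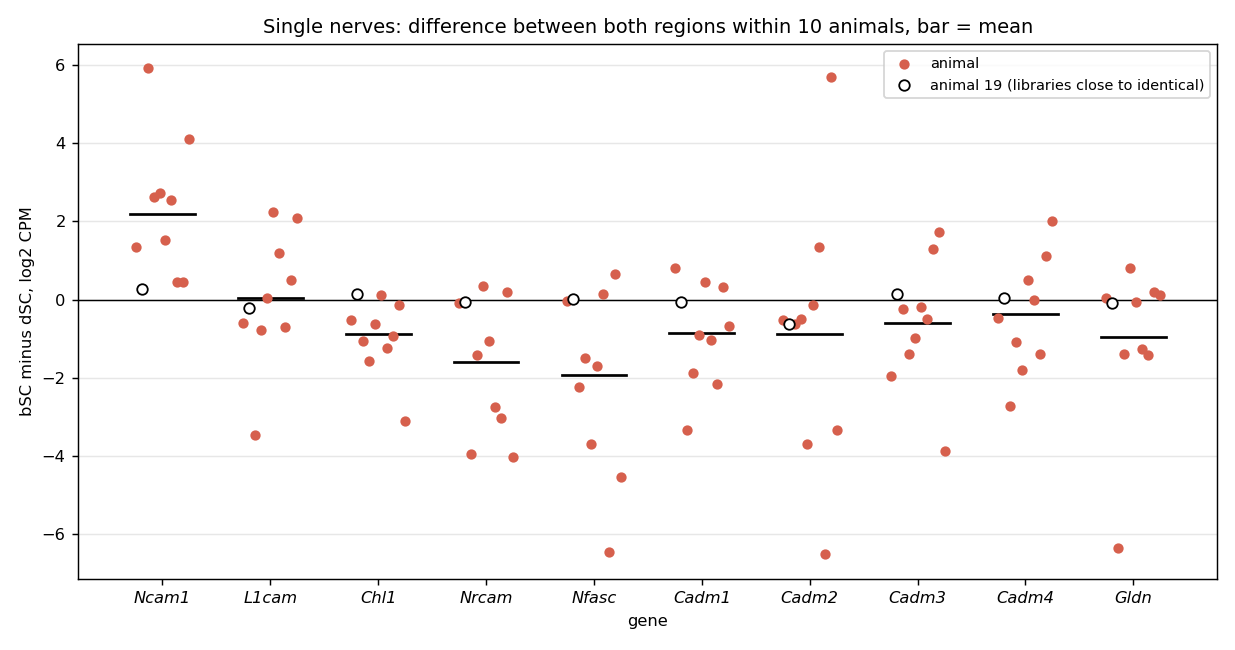
Difference between bSCs and dSCs of the same animal in log2 CPM for each of the 10 genes, over 10 animals at days 4 to 10. Each point is an animal, the open point is animal 19, whose libraries are close to identical, and the bar is the mean. All 10 points of Ncam1 lie above 0, and those of the other genes lie on both sides of it.

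Ncam1 was higher in the bridge than in the distal stump in all 10 animals with both regions (not counted over all genes). At day 4 the bSC and dSC levels were 267 and 106 CPM, 37.6 and 30.9 CPM, and 357 and 5.75 CPM in animals 18, 19 and 20. At day 6 they were 422 and 68.2, 300.0 and 45.0, and 665 and 231.5 CPM, at day 8 402 and 68.2, 144 and 105, and 59.8 and 43.7 CPM, and in the one pair of day 10 they were 769 and 44.6 CPM. The smallest differences were those of animal 19 and of 2 animals of day 8. The mean difference was 2.20 ± 1.80 on the log2 scale (SD, n = 10 animals), and 2.41 ± 1.77 without animal 19 (n = 9). In the fit of all libraries the log2 fold change was 1.83 ± 0.60 with an edgeR adjusted p of 0.219, and 1.81 ± 0.46 without the 4 libraries of few genes (0.0623). With the animal as a replicate block it was 2.08 ± 0.48 (adjusted p = 0.142), and 2.30 ± 0.49 without animal 19 (adjusted p = 0.0652), so that the difference did not pass the threshold in any of these edgeR fits, while DESeq2 called it. In the 5 iSC libraries Ncam1 was at 11.6, 53.3, 71.9, 332 and 96.5 CPM, and dSCs of days 4 to 10 differed from them by -0.30 ± 0.74 (adjusted p = 0.893).

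Nfasc and the remaining genes were variable between single nerves. Nfasc was at 0 to 38.9 CPM in iSCs, 0 to 69.3 CPM in dSCs of days 4 to 10 and 0 to 21.7 CPM in bSCs, with 4 of 12 bSC libraries and 1 of 12 dSC libraries at 0. At day 10 its bSC libraries were at 0, 0 and 0.376 CPM. The log2 fold change in bSCs against dSCs was -2.23 ± 1.02 (edgeR adjusted p = 0.496), and -2.23 ± 0.83 without the 4 libraries of few genes (0.204), and 7 of 10 animals had less in bSCs. Cadm2 was at 97.1, 31.4, 0.845, 67.2 and 10.0 CPM in iSCs and at medians of 3.46 CPM in dSCs and 2.65 CPM in bSCs of days 4 to 10, with log2 fold changes of -3.10 ± 1.16 and -3.39 ± 1.17 (adjusted p = 0.111 and 0.0613). DESeq2 called the second (adjusted p = 0.0241), edgeR did so without bSC day 10 replicate 2 (0.0306), and without the 4 libraries of few genes the values were -2.36 ± 1.36 and -2.67 ± 1.35 (edgeR adjusted p = 0.418 and 0.241). Cadm3 was at 13 to 48.8 CPM in iSCs, 50.3 to 76.6 CPM in dSCs of day 1, and 7.42 to 38.2 CPM in dSCs of days 4 to 10. Its log2 fold change against iSCs was -0.58 ± 0.54 in those dSCs and -0.82 ± 0.54 in bSCs (edgeR adjusted p = 0.626 and 0.384). Chl1, Cadm1 and Cadm4 had log2 fold changes between -0.78 and 0.69 in the 5 contrasts over days, with the exception of Cadm1 in dSCs of days 4 to 10 against days 1 and 2 (1.06 ± 0.41, adjusted p = 0.167).

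**Figure D5:**
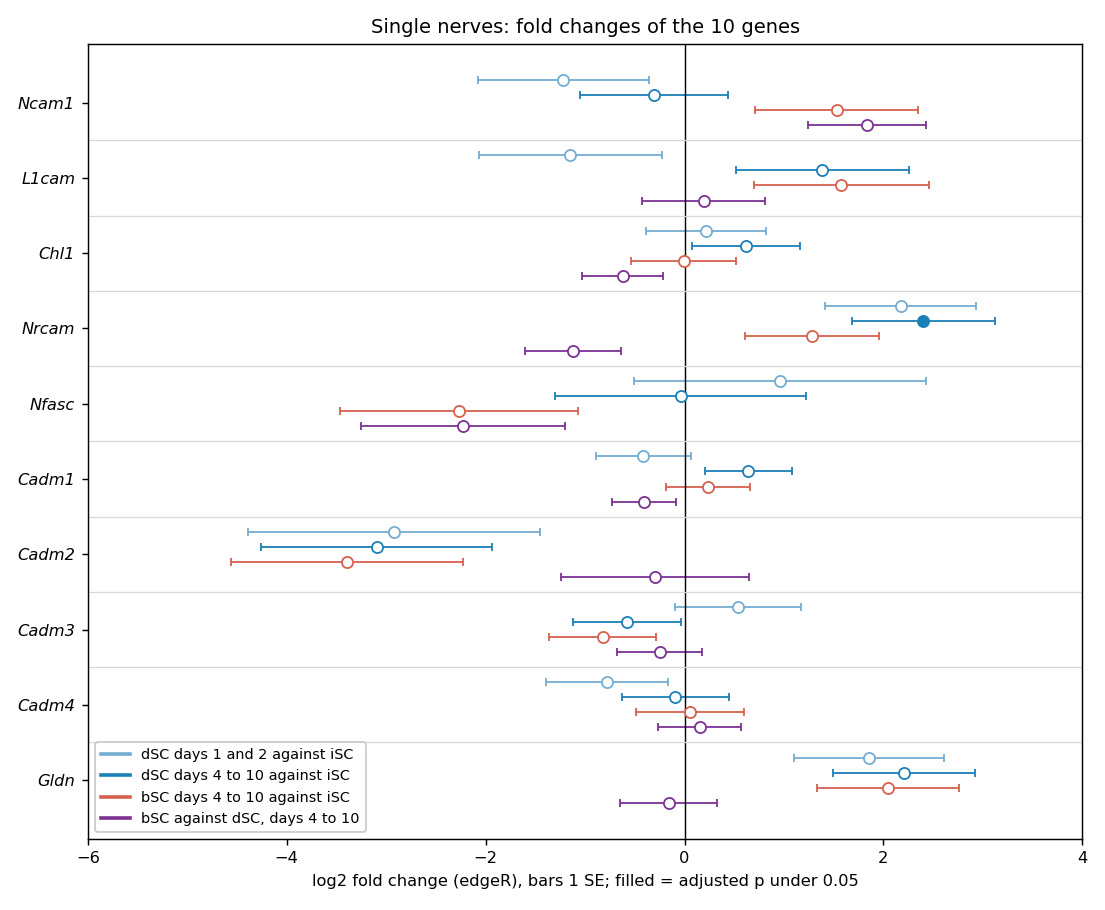
Log2 fold changes of the 10 genes in 4 single-nerve comparisons, from the edgeR fit of 35 libraries. The horizontal axis is the log2 fold change, bars are 1 SE, colours are the comparisons and the filled point has an adjusted p under 0.05. Only Nrcam in dSCs of days 4 to 10 against iSCs is filled, and the open points of Cadm2 reach -3.39.

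The pooled and the single nerves gave different values for the same contrast. At day 6, the effect of dSCs against iSCs was lower in the pooled nerves for all 10 genes, and the difference of the effects was -2.93 ± 1.02 on the log2 scale for Ncam1, -3.12 ± 1.49 for L1cam, -4.68 ± 1.72 for Nfasc, -2.47 ± 0.80 for Cadm3 and -3.13 ± 1.02 for Gldn. The median difference over all genes was -0.00588. No member passed the test of this difference (edgeR adjusted p = 0.715 to 1.00), and 0% of the 15066 genes in that fit did. An unadjusted p under 0.05 was reached by 6 of the 10 genes and by 875 of all genes. For bSCs against dSCs at day 6 the difference of the effects ranged from -1.53 to 1.74 over the 10 genes. Again none of them and 0% of all genes were called (no member and 871 genes had an unadjusted p under 0.05). For Ncam1, L1cam, Nfasc, Cadm3 and Gldn, mean CPM was 562.5, 138.5, 193.7, 158.7 and 183.5 in pooled iSCs. In single-nerve iSCs it was 113, 22.16, 12.47, 26.61 and 20.85. In dSCs of day 6 it was 75.97, 33.99, 17.43, 25.54 and 95.69 in pooled and 114.9, 47.86, 29.95, 23.86 and 96.11 in single nerves. CPM was scaled within each experiment. Single-nerve iSC replicates 0 and 1 are among the libraries of few genes, and the test between experiments was not repeated without them. The experiments differ in the number of mice per library, which cannot be told apart from other differences between them. In single nerves, the 4 SC markers summed to 80.3 to 414 CPM in iSCs, 261 to 597 CPM in dSCs and 27.1 to 618 CPM in bSCs of days 4 to 10, and the macrophage markers to 228 to 902, 1740 to 11200 and 689 to 9860 CPM. Fibroblast markers summed to 19100 to 25600, 15300 to 37700 and 12400 to 42000 CPM, perineurial markers to 839 to 2170, 153 to 795 and 137 to 601 CPM, and neuronal markers to 7.67 to 33.4, 26.8 to 96 and 16.3 to 182 CPM in the same groups. Of the neuronal markers, Syt1 and Elavl4 were at 0 in all libraries of these groups, and Snap25 in all of the dSCs and bSCs. The part of these cells in the single-nerve results, Nrcam included, was not tested.

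Genes that work with the 10 adhesion molecules were counted from lists. Of 16 tested genes for partners and anchors of these proteins (contactins, ankyrins, spectrins, the scaffold of the internode and the ezrin group of SC microvilli), none was called in pooled dSCs against iSCs, and 2 rose and 2 fell in bSCs against iSCs, where 5.32% and 14.7% of all genes were called. Msn rose from a mean of 383 to 1539 CPM (log2 fold change 2.01 ± 0.32, adjusted p = 0.00118) and Ezr by 1.33 ± 0.32 (adjusted p = 0.0136), both encoding links between membrane and actin. The anchors Ank2 and Sptbn1 fell by 3.47 and 1.16 on the log2 scale (edgeR adjusted p = 0.0233 and 0.0327). Msn also rose in bSCs against dSCs. The median of the list was -0.167 in dSCs and -0.85 in bSCs against iSCs, and that of all genes -0.023 and -0.156. In single nerves Ezr rose in dSCs (1.59 ± 0.48, adjusted p = 0.0457) and bSCs (1.71 ± 0.48, edgeR adjusted p = 0.0227) of days 4 to 10, Sdc3 rose and Sptbn1 and Cntn1 fell in bSCs, and Ank3 rose in dSCs from days 1 and 2 to days 4 to 10. The shares of all genes called were 5.32% (dSCs against iSCs), 9.34% (bSCs against iSCs) and 2.24% (late against early dSCs).

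Of 13 other immunoglobulin adhesion genes, 2 fell in pooled dSCs (Jam3 and Mag) and none rose, and in bSCs 2 fell (Jam3 and Ncam2) and 1 rose (Mcam), all against iSCs. Of all genes, 5.32% and 14.7% were called in these comparisons. The medians of this list were -0.136 and -0.381, and those of all genes -0.023 and -0.156. Jam3, a junctional adhesion molecule of autotypic contacts, fell by 2.28 (SE 0.29, adjusted p = 0.000982) and 2.38 on the log2 scale (SE 0.30, edgeR adjusted p = 0.000337). Ncam2, the paralogue of Ncam1, was at a mean of 9.96 CPM in iSCs and 8.22 CPM in dSCs and at 0 in the 4 bSC libraries. In single nerves 2 genes of this list rose and 4 fell in dSCs of days 4 to 10, among them Mcam (1.91 ± 0.41, adjusted p = 0.00537), Thy1 (2.52 ± 0.69, adjusted p = 0.0296) and Bsg (-1.53 ± 0.25, edgeR adjusted p = 0.000354). In bSCs 1 rose (Mcam) and 3 fell (Bsg, Jam3 and Jam2). The shares of all genes called in these single-nerve comparisons were 5.32% (dSCs) and 9.34% (bSCs).

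Among 7 enzymes that modify or cleave these proteins, the protease gene Adam10 fell in pooled dSCs (-1.47 ± 0.27, adjusted p = 0.00705) and bSCs (-1.44 ± 0.27, edgeR adjusted p = 0.00311), and no other was called there. For this and the following lists, 5.32% of all genes were called in pooled dSCs and 14.7% in pooled bSCs. In single nerves it was 5.32% in dSCs and 9.34% in bSCs of days 4 to 10, and 0.677% in dSCs of days 1 and 2, all against iSCs. In single nerves St8sia2, which encodes a polysialyltransferase that acts on NCAM1, rose in dSCs of days 4 to 10 from a mean of 1.97 to 37.4 CPM (4.11 ± 1.07, adjusted p = 0.0223) and in bSCs to 64.5 CPM (4.71 ± 1.11, edgeR adjusted p = 0.00811). Of 8 genes for other axon-glia signals, 4 fell in pooled dSCs, among them Lgi4 (-2.43 ± 0.39, adjusted p = 0.00322), Itga6 (-1.78 ± 0.37) and Gpr126 (-2.49 ± 0.56), and in bSCs Lgi4 and Itga6 fell and Itgb1 rose (1.31 ± 0.29, edgeR adjusted p = 0.00936). None of these 8 was called in the single-nerve comparisons. For comparison with the state of the cells, all 4 myelin genes listed (Pmp22, Prx, Mbp and Mag) fell in pooled dSCs and 3 of 4 in pooled bSCs, while in single nerves 4 of 4 myelin genes fell in dSCs and 3 of 4 in bSCs of days 4 to 10. Of 6 genes of the immature or repair state, Ngfr and Gdnf rose and Gfap fell in pooled dSCs, Ngfr and Gdnf rose in pooled bSCs, and Ngfr and Shh rose in both regions of single nerves at days 4 to 10, all against iSCs. In the single-nerve dSCs of days 1 and 2, Bsg fell and Shh rose, and no other gene of these lists was called.

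Across the 35 single-nerve libraries, each gene was compared with the other members and with all tested genes. The highest Pearson's r of log2 CPM between 2 of the 10 genes was 0.76 (Cadm1 and Cadm4), followed by 0.64 (Nrcam and Chl1), and the lowest was -0.436 (Ncam1 and Cadm3). Among all tested genes, the closest to Ncam1 were Tspan18 and Gm11149 (r = 0.876 each), of which Gm11149 lies within the span of Ncam1 on the other strand, and Olfml2a (0.819). Those closest to L1cam were Cpt1c (0.92), Lamb1 (0.916) and BC005764 (0.906), those closest to Nrcam were Gfra1 (0.817), Syt4 (0.806) and Shh (0.792), and those closest to Cadm4 were Lgi4 (0.799), Slc44a1 (0.779) and Cadm1 (0.76). For the other genes the nearest were Itgb8, Btc and Cela1 (Chl1, 0.79 to 0.658), Alpl, Fmod and Asb2 (Nfasc, 0.801 to 0.755), Gm10677, Pcbp4 and Plxnb3 (Cadm1, 0.926 to 0.778), 1700010K23Rik, Aqp11 and Cmtm5 (Cadm2, 0.824 to 0.652), Pi16, Acot8 and Eln (Cadm3, 0.769 to 0.74), and 4930506M07Rik, Gm10007 and Nav2 (Gldn, 0.853 to 0.808). These libraries share days, regions and depth, and the correlations are given as descriptions.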

How the data were processed

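Reads were counted per gene in 47 mouse libraries, made from sorted cells with Smart-seq2 and Nextera XT. The deposited values are raw counts that the authors made by aligning reads to mm9 with TopHat2 2.0.11 and counting with HTSeq. Reads that overlapped no counted feature (53.77 to 60.53% of unique reads in pooled and 52.53 to 59.57% in single nerves) and 92 spike-ins were left out. The lanes of 8 libraries were summed. Rat files were not used. Counts were tested with edgeR 4.0.16 in R 4.3.3 (filterByExpr, TMM, quasi-likelihood test), in 1 fit per experiment, with Benjamini-Hochberg adjusted p under 0.05 as the call. The SE of an edgeR log2 fold change is its absolute value divided by the square root of the F statistic of its test. It therefore restates that test and is no separate measure of spread. In single nerves the filter of the study (100 counts in 85% of libraries) was an alternative, because it drops genes that are low in 1 group. DESeq2 1.42.0, its size factors, no filter, the groups compared alone, replicate blocks and leaving out each library were the others. RPKM used exon lengths of GENCODE vM1. Tests were also run on simulated counts with known changes. The simulated libraries were independent, without pairs or libraries of few genes, so these features of the data were not covered.

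All 10 members were described, and of each list the genes with the smallest adjusted p (up to 3 per direction) and, for likeness, the 3 with the highest r were named. Members and lists were chosen with earlier results of these data known. Some listed genes are not reported here and were left out of all list counts and marker sums. Pairing came from the animal identifiers in the labels. Deviations from group means of same-numbered libraries correlated at -0.0277, -0.0669 and 0.0352 in pooled nerves (dSC with iSC, bSC with iSC, bSC with dSC) and at a mean of 0.157 over 10 animals in single nerves. The single-nerve values ranged from -0.0624 to 0.677, with the near-identical pair of animal 19 among them. Libraries of different animals had a mean of -0.0677. The day 10 bSC replicate 0, whose labels disagree on the animal, was left out of the pairs. Fits without the 4 libraries of few genes or without the near-identical pair, and the test between experiments (23 libraries), were added after seeing the data. A floor of 3 counts covers counting error only.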

Additional observations from a re-analysis of the deposited data

Results flagged for a closer look

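In 6 of 40 groups of 4 or 5 libraries, the highest library stood apart from the rest by a gap test on CPM. Chance alone passes this test in about 1 group in 20 if values are normally distributed. That was not checked for CPM, so the rate may not apply here. In pooled bSCs, Chl1 was at 188.8 CPM in replicate 5 against 93.42 CPM in the next library, Cadm3 at 51.91 CPM in replicate 3 against 15.92, and Cadm4 at 169.2 CPM in replicate 3 against 42.95. In pooled dSCs, Nfasc was at 27.54 CPM in replicate 1 against 14.62. In single-nerve iSCs, replicate 4 was highest for both Ncam1 (332.0 CPM, next 96.47) and L1cam (73.72 CPM, next 18.81). The cause was not tested.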

How the results depend on the processing

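Of 460 values under alternatives other than leaving out a library, 433 kept direction and side of the threshold, 10 lost and 6 gained a call, and 11 changed sign. Leaving out 1 library gave 993, 45, 9 and 63 of 1110. The sign turned somewhere for 17 of 80 values, none of them called, and the cause was not tested. The number of the 10 genes called fell from 5 to 1 (dSC against iSC) and from 3 to 1 (bSC against dSC) with the pool as a replicate block, and ranged from 2 (without iSC replicates 1, 2 or 4 or dSC replicates 1, 2 or 5) to 7 (without iSC replicate 5) and from 1 (without dSC replicate 1) to 3 when 1 library was left out. In dSC against iSC, the count over all genes moved in the same direction as that of the 10 genes. It was 732 with all libraries, 314 and 345 without iSC replicates 2 and 4, and 1007 without iSC replicate 5. In single nerves DESeq2 called 2 of the 10 genes in dSCs of days 4 to 10 and 2 in bSCs against iSCs. It called 1 in bSCs against dSCs and 1 in late against early dSCs. In dSCs of days 4 to 10, 0 were called without the 4 libraries of few genes or without the near-identical pair, and leaving out 1 library gave 0 to 1 there and in bSCs against iSCs. The animal block called none of the 10 in bSCs against dSCs.

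Log2 fold changes near 0 turned. Leaving out 1 library gave, in pooled bSCs against iSCs, -0.20 to 0.60 for Ncam1 (-0.25 with the replicate block) and -0.40 to 0.25 for L1cam. In pooled bSCs against dSCs it gave -0.37 to 0.0904 (Cadm1), -0.83 to 0.11 (Cadm3), -0.65 to 0.52 (Cadm4) and -0.41 to 0.0513 (Gldn). In single-nerve dSCs of days 1 and 2 it gave -1.56 to 0.10 (L1cam) and -0.0661 to 0.72 (Chl1), and Cadm1 was 0.10 without the 4 libraries of few genes. In dSCs of days 4 to 10 it gave -0.61 to 0.69 (Ncam1), -0.39 to 1.06 (Nfasc) and -0.30 to 0.55 (Cadm4, 0.44 without the 4 libraries). In bSCs against iSCs it gave -0.29 to 0.51 for Chl1 (0.0239 without a filter, 0.85 without the 4 libraries, 0.0296 without the near-identical pair) and -0.24 to 0.66 for Cadm4 (-0.0078 with the filter of the study, -0.17 without the pair). In bSCs against dSCs it gave -0.13 to 0.33 (L1cam) and -0.24 to 0.24 for Cadm4 (-0.40 with the animal as a replicate block, -0.0728 without the pair, -0.46 with both), and in late against early dSCs -0.42 to 0.93 (Cadm2).

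Over all genes, DESeq2 called 1393, 3114 and 1939 in the pooled comparisons against 732, 2022 and 746 in edgeR, and the pool block 287, 968 and 236. With the groups compared alone, 485 were called in bSCs against dSCs. In single nerves DESeq2 called 560 (dSCs of days 1 and 2), 1624 (days 4 to 10), 579 (bSCs against dSCs) and 1137 (late against early) against 105, 826, 16 and 347. Without the 4 libraries of few genes the counts were 35, 514, 92 and 44. The filter of the study called 723 in bSCs against iSCs (1449 in edgeR's) and 8 in bSCs against dSCs, where no filter called 30, DESeq2 size factors 25, the animal block 0 and that block without the pair 32. The interaction of region and day had 1 call without the 4 libraries.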
